A study of Caenorhabditis elegans with 2 samples.

Results

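The Rb and DREAM complex genes of Caenorhabditis elegans were taken as 8 named genes, lin-35, efl-1, dpl-1, lin-9, lin-37, lin-52, lin-53 and lin-54, out of 19973 nuclear protein-coding genes (46926 genes of all kinds). They were chosen by name, and all 8 were found in the Ensembl annotation. The question was where LIR-1, a zinc-finger protein, was precipitated at these genes. The data were chromatin immunoprecipitation and sequencing (ChIP-seq) of whole young adults of strain RW12318, in which the lir-1 gene itself carries a TY1::EGFP::3xFLAG tag inserted by CRISPR. Animals were grown for 63 hours from larvae that had hatched and starved after bleaching, and sonicated chromatin was precipitated with an antibody to GFP. There was 1 group of 2 libraries, labelled biological replicates 1 and 2, so no condition could be compared with another. All animals carried the tag, and whole animals give an average over tissues, so a peak cannot be placed in a cell type.

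DREAM is a repressor complex that in worms holds cell-cycle genes and germline genes down in somatic cells. LIN-35 is the worm's retinoblastoma-like pocket protein. EFL-1, an E2F factor, and DPL-1, its DP partner, form the DNA-binding pair that LIN-35 works through. LIN-9, LIN-37, LIN-52, LIN-53 and LIN-54 make up the MuvB core, in which LIN-54 binds a DNA sequence called the CHR element, LIN-53 is a histone-binding protein shared with other chromatin complexes, and LIN-52 links the core to the pocket protein. The genes are known in the worm as class B synthetic multivulva (synMuv B) genes.

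Peaks were ranked by the authors with a signal score. The irreproducible discovery rate (IDR) of each peak is low for peaks that are strong in both libraries. It is not a measure of close agreement alone. A lin-37 peak with library scores of 16.9 and 18.4 had an IDR of 0.487. A lin-35 peak with scores of 73.0 and 40.9 had 1.54e-04. A peak of the authors' conservative set is called a site here. That set held 1209 sites with an IDR of 0.00997 or lower, out of 36486 ranked peaks, and the median score was 86.4 at sites and 28.4 over all ranked peaks. The lowest IDR in the file is 1.00e-05, which 178 sites share. Replicate 1's own list past the authors' threshold held 834 peaks and replicate 2's held 580. The median library score at sites was 43.7 in both replicates. How the score of both libraries together (the joint score) relates to the library scores is not stated, so the joint score is not compared with them. The files give no read totals, so depth is unknown.

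A site lay in the promoter window of 5 of the 8 genes: lin-35, efl-1, lin-9, lin-53 and lin-54. The window ran from 1000 bp upstream to 200 bp downstream of the gene's 5′ end, and 4.42% of all protein-coding genes (883 of 19973) had a site in theirs. No site lay inside a member gene, so the count with the gene included was again 5 of 8, where the share of all protein-coding genes was 5.62%. The genes dpl-1, lin-37 and lin-52 had ranked peaks but no site. Counted in the own list of one library, lin-35, efl-1, lin-9, lin-53 and lin-54 again had a peak in replicate 1 (5 of 8, against 3.50% of protein-coding genes), and lin-9, lin-53 and lin-54 in replicate 2 (3 of 8, against 2.39%). The other set the authors drew from both libraries, of 1111 peaks, gave the same 5 genes as the conservative set, where its share of all protein-coding genes was 4.14%. The members were named with earlier results of these data known, so their count is given as a description. All 5 summits lay upstream of the gene, between 144 and 356 bp from its 5′ end.

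**Figure D1:**
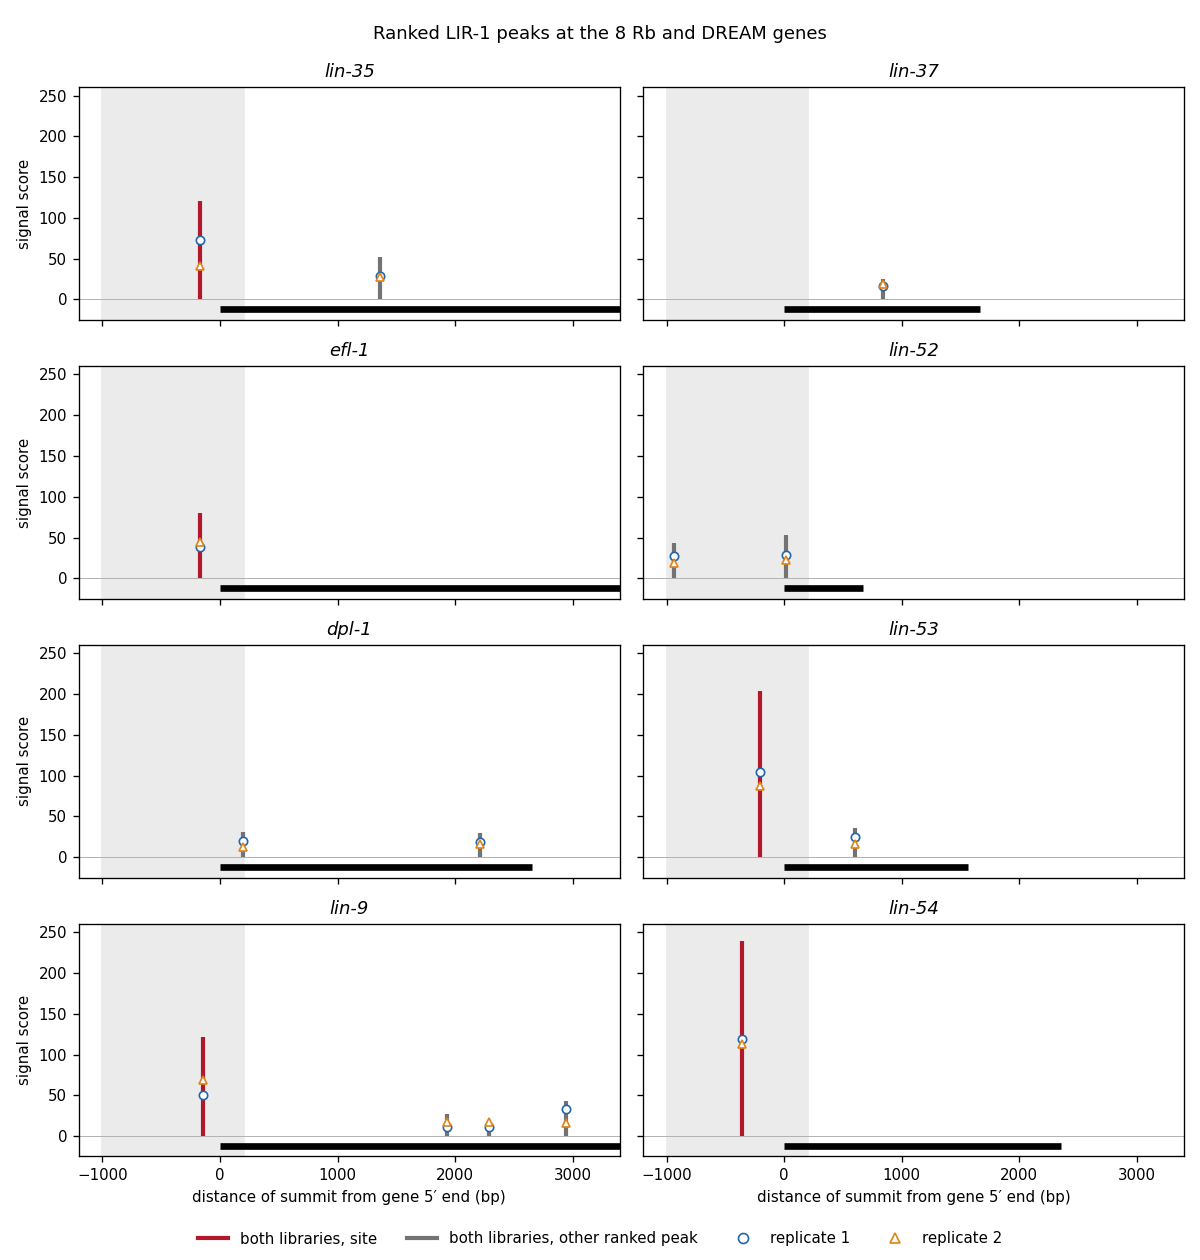
Signal score of each ranked peak against the distance of its summit from the gene's 5′ end, for the 8 genes; bars give both libraries together, open circles replicate 1 and triangles replicate 2. Grey shading marks the promoter window and the black bar the gene, cut at the right edge for lin-35, efl-1 and lin-9. The 5 sites stand 144 to 356 bp upstream with scores of 80.4 to 239.4, and no other ranked peak shown exceeds 53.7.

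The gene of the pocket protein, lin-35 (WBGene00003020, chromosome I, 5807709 to 5815637, plus strand), had a site at I:5807399-5807678, whose summit lay 170 bp upstream. Its score was 73.0 in replicate 1 and 40.9 in replicate 2 (57.0 ± 22.7, SD, n = 2), the widest spread among the 5 sites. Both libraries together gave 121.2, with an IDR of 1.54e-04, which placed it at rank 266 of 1209 sites. It passed in replicate 1's own list and not in replicate 2's. The log2 ratio of replicate 1 to replicate 2 was 0.84, outside the range of -0.52 to 0.53 that held the middle 80% of sites. The libraries thus differed more at lin-35 than at most sites. A second ranked peak lay in the gene, 1363 bp downstream of the 5′ end, with library scores of 28.5 and 26.9, a joint score of 52.4 and an IDR of 0.0340. That was the member peak nearest to the threshold from outside.

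The E2F gene and the DP gene differed. The efl-1 gene (WBGene00001161, V, 16958590 to 16965675, minus strand) had 1 ranked peak, and it was a site, at V:16965707-16965986, with its summit 172 bp upstream. Its score was 38.1 in replicate 1 and 44.4 in replicate 2 (41.2 ± 4.47, SD, n = 2). Both together gave 80.4 with an IDR of 9.32e-04, rank 709 of 1209, the weakest of the 5 member sites and below the median of all sites. It was the only one of the 5 that was not among the stronger 50% of sites. It passed in replicate 1's own list and not in replicate 2's, and its score was the higher in replicate 2. The own lists differ in length, with 834 peaks in replicate 1 and 580 in replicate 2. Being inside the threshold with the highest IDR of the 5, it was also the member site nearest to the threshold.

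At dpl-1 (WBGene00001061, II, 9169910 to 9172565, plus strand) both ranked peaks were weak. The peak in the promoter window, 192 bp downstream of the 5′ end, scored 19.9 in replicate 1 and 12.4 in replicate 2, with a joint score of 30.6 and an IDR of 0.738. The other, 2209 bp downstream, scored 18.6 and 15.8, with a joint score of 29.6 and an IDR of 0.609. Of the 7703 protein-coding genes with any ranked peak in the window (38.6% of all), 39.5% had a weaker strongest peak than dpl-1 did. The dpl-1 gene lies wholly within T23G7.2 on the other strand (II, 9167933 to 9172949), so its window is the inside of another gene.

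Among the MuvB genes, lin-54 (WBGene00003037, IV, 13241044 to 13243401, plus strand) had the strongest site, at IV:13240641-13240763, with its summit 356 bp upstream. Its score was 118.9 in replicate 1 and 113.1 in replicate 2 (116.0 ± 4.12, SD, n = 2), the smallest spread of the 5. Both together gave 239.4, rank 34 of 1209, at the lowest IDR. This peak was 123 bp wide, where 1132 of the 1209 sites, the other 4 of the members among them, were 280 bp wide. For the histone-binding subunit, lin-53 (WBGene00003036, I, 9618196 to 9619760, minus strand), the site lay at I:9619829-9620108, 209 bp upstream. It scored 104.9 and 87.9 in replicates 1 and 2 (96.4 ± 12.1, SD, n = 2) and 204.3 together, rank 65, also at the lowest IDR. A further ranked peak, 604 bp into lin-53, had a score of 35.6 and an IDR of 0.660.

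The lin-9 gene (WBGene00002998, III, 8900237 to 8904131, minus strand) had its site at III:8904135-8904414, 144 bp upstream, the closest of the 5 to its gene. The score was 50.9 in replicate 1 and 68.6 in replicate 2 (59.7 ± 12.5, SD, n = 2), and 121.3 together, with an IDR of 4.83e-05 and rank 263. With lin-35 at 121.2, the scores of both libraries together were nearly the same at lin-9 and lin-35, but the IDR was lower at lin-9, and the library with the higher score was the other one. The lin-9, lin-53 and lin-54 sites passed in the own list of each replicate. Inside lin-9 there were 3 further ranked peaks, with joint scores from 13.1 to 42.9 and IDR from 0.720 to 0.866. The file pairs 2 of these 3 with the same library peaks, so they are not separate observations.

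**Figure D2:**
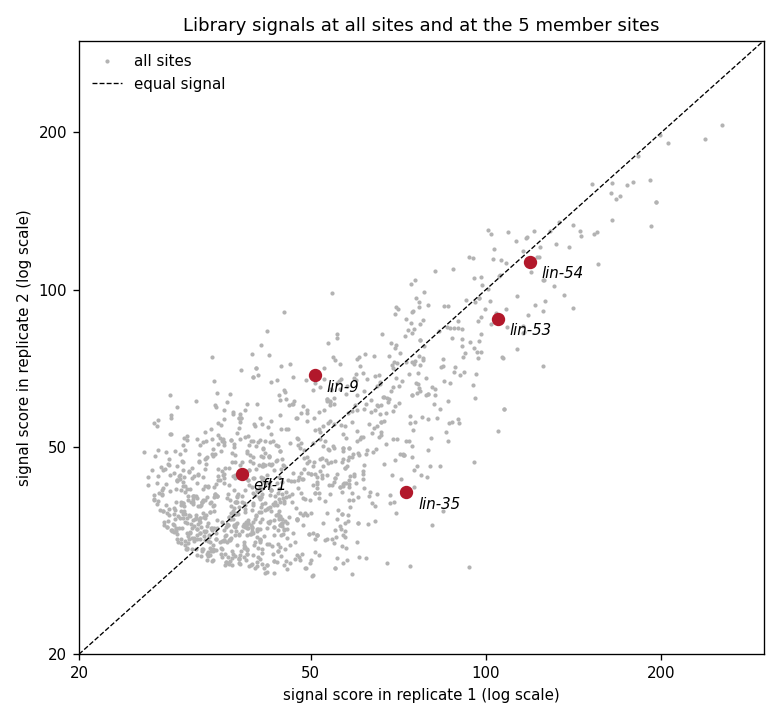
Signal score in replicate 1 (x axis) against replicate 2 (y axis), both on log scales, for all 1209 sites (grey) and the 5 member sites (red); the dashed line marks equal scores. lin-54 lies near the line, lin-35 (73.0 and 40.9) lies below it and lin-9 (50.9 and 68.6) above it. Some sites share their library scores, so their grey points coincide.

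The MuvB genes lin-37 and lin-52 had no site. For lin-37 (WBGene00003022, III, 7070890 to 7072552, minus strand) the window held no ranked peak at all, as was so for most protein-coding genes. Its only ranked peak lay 843 bp into the gene, with library scores of 16.9 and 18.4, a joint score of 25.0 and an IDR of 0.487. For lin-52 (WBGene00003035, III, 9824083 to 9824750, minus strand) the window held 2 ranked peaks. The stronger, 14 bp downstream of the 5′ end, scored 28.5 in replicate 1 and 22.3 in replicate 2 (25.4 ± 4.37, SD, n = 2), and 53.7 together, with an IDR of 0.138. That was above the strongest window peak of 82.2% of the genes that had one, although it did not pass the IDR threshold. The weaker, 939 bp upstream, had a joint score of 43.5 and an IDR of 0.465. None of the ranked peaks at dpl-1, lin-37 or lin-52 was in the own list of either replicate.

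**Figure D3:**
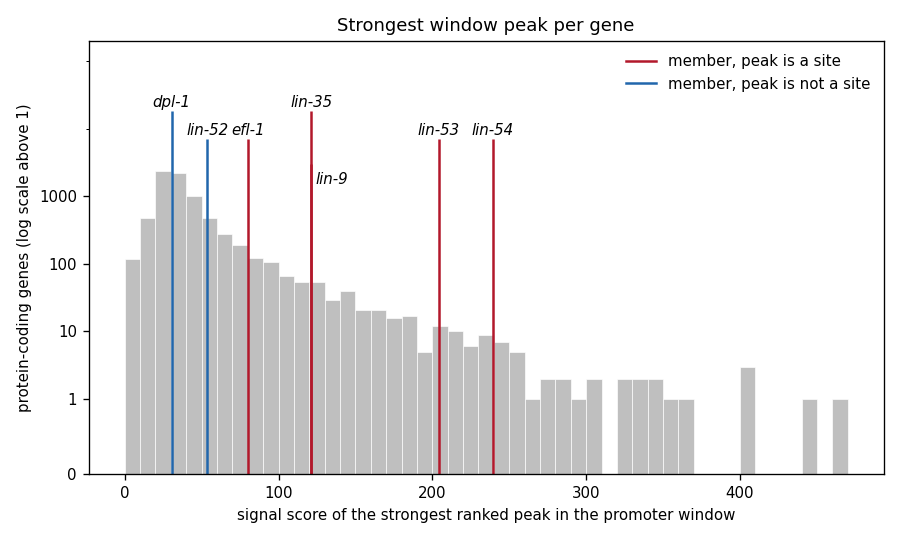
Number of protein-coding genes (y axis, log scale above 1) by the signal score of the strongest ranked peak in the promoter window (x axis, bins of 10), for the 7703 genes with such a peak; lines mark the members, with lin-37 absent because its window held none. The 5 members with a site lie at 80.4 to 239.4, and dpl-1 (30.6) and lin-52 (53.7) lie at lower scores.

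Most of these sites are shared with another gene. The lin-35 site also lay in the window of vps-51, a gene for vesicle tethering on the opposite strand, whose 5′ end was 248 bp from the summit against 170 bp for lin-35. The lin-53 site was 258 bp upstream of nra-2 and 209 bp upstream of lin-53. The efl-1 site was 172 bp upstream of efl-1 and 967 bp upstream of fbxa-90, an F-box gene. At lin-54 the order was the other way round: the summit lay 37 bp upstream of rpl-12, a gene of the large ribosomal subunit, and 356 bp upstream of lin-54. Only the lin-9 site lay in the window of no other gene. When each site was given to the protein-coding gene with the nearest 5′ end, 4 of the 8 members had one, against 3.15% of all protein-coding genes, and lin-54 lost its site to rpl-12. A peak between divergent genes cannot be assigned to one of them from these data. Sharing is common in the series: 244 of the 664 sites in promoter windows (36.7%) lay in the windows of 2 or more protein-coding genes.

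The members were also grouped by what lies upstream of them. The members lin-35, lin-53 and lin-54 have a divergent neighbour whose 5′ end is 418, 467 and 393 bp away, and all 3 had a site. Among all 3435 protein-coding genes whose nearest upstream neighbour is on the opposite strand within 1000 bp, 11.4% had one, a share in which a site between a pair counts for both genes. The efl-1 and lin-9 genes have 1138 and 1483 bp before the next protein-coding gene, fbxa-90 and unc-32, and both had a site, as did 2.93% of the 11613 genes with no such close neighbour. The lin-37 and lin-52 genes lie 60 and 126 bp behind a gene on the same strand, ZK418.5 and ZK632.9, and neither had a site, where 3.23% of 3534 genes with a same-strand neighbour within 500 bp did. The dpl-1 gene is the member that starts inside another gene, an arrangement in which 2.80% of 1391 genes had a site. This grouping was made after the sites were known, and with 1 to 3 members in each it is a description only.

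**Figure D4:**
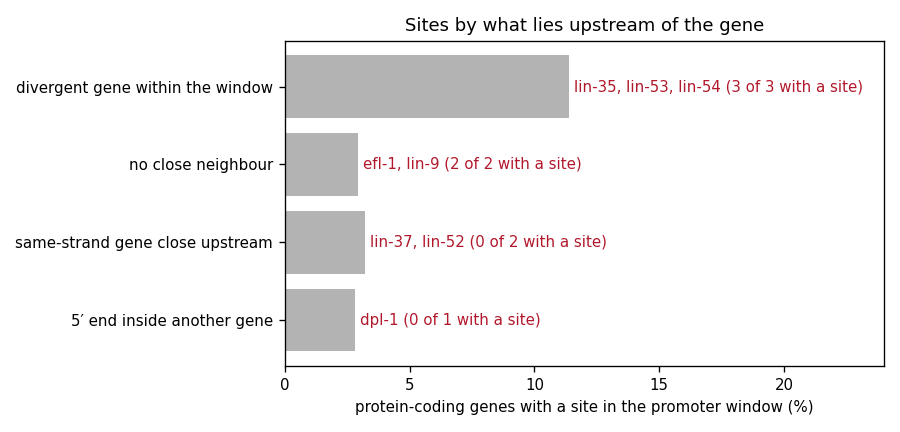
Share of protein-coding genes with a site in the promoter window (x axis, percent) by what lies upstream of the gene (grey bars), with the members of each arrangement named beside the bar. The share was 11.4% for divergent genes and 2.80% to 3.23% for the others; the members with a site are the 3 divergent genes and the 2 with no close neighbour.

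Closely spaced worm genes on 1 strand are often transcribed together from the start of the first, so the genes ahead of lin-37 and lin-52 were examined too. Ahead of lin-37, 4 same-strand genes follow each other with gaps of 500 bp or less, and their windows held 0 sites; the strongest ranked peak, at ZK418.5, had a score of 21.8 and an IDR of 0.866. Ahead of lin-52, ZK632.9 had no site either, and its strongest peak was the 43.5 peak named above, 257 bp upstream of it. In the other direction, lin-53 is followed by rba-1, a close relative of lin-53, 88 bp behind it on the same strand, and rba-1 had no ranked peak in its own window.

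The DNA under 3 of the member sites holds the same run of letters. The windows reaching 50 bp to either side of the summits of the efl-1, lin-9 and lin-54 sites are shown because they share it, and that of the stronger lin-52 peak because it did not pass. They are plus-strand sequence of WBcel235 (ce11), written 5′ to 3′, from V:16965797-16965897, III:8904225-8904325, IV:13240638-13240738 and III:9824686-9824786. Capitals mark the shared run GTGGAGCGC and matches to the CHR element TTTGAA, whose reverse complement is TTCAAA.
efl-1: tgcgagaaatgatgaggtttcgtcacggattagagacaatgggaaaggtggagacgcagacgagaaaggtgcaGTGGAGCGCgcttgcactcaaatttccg
lin-9: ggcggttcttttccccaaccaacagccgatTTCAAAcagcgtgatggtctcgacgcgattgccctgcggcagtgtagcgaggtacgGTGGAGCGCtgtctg
lin-54: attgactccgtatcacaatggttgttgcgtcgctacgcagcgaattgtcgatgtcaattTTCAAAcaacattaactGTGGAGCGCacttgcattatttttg
lin-52: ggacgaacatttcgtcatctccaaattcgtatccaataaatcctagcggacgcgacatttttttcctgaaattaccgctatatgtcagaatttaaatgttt

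GTGGAGCGC was the longest run held by at least 3 of the 5 member windows. It lay to the right of the summit on the plus strand in each, starting 23 bp (efl-1), 36 bp (lin-9) and 26 bp (lin-54) after it. On both strands, 23 of the 1209 site windows held it (1.90%), against 0 of 2418 windows centred 500 bp to either side. Of windows of the same length centred 200 bp upstream of each protein-coding gene, 0.155% held it. The run has 756 copies in the nuclear genome, and 23 of them (3.04%) lay within 50 bp of a site's summit. It was picked from the member windows themselves, so its count among them is a description. At efl-1 and lin-54 the match goes on: of 16 letters counted from the start of the run, 15 were identical, and the difference was G10A, with efl-1 first. At lin-9 only 10 of the 16 matched those of either gene. With any base at position 10, the 16 letters shared by efl-1 and lin-54 stood at 150 places in the genome and within 100 bp of the summits of 9 sites, so the sequence is repeated in the genome. The labels and files do not state how reads with several matching places were treated.

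Of the elements linked to the complex itself, 1 form of the CHR element was found within 50 bp of the summits of 3 member sites. The E2F forms were found at none within that reach. The E2F element was searched as TTCCCGC and TTGGCGC and the CHR element as TTTGAA and TTCGAA, on both strands; the last is its own reverse complement. Within 50 bp of the summit, no member site held either form of the E2F element, which stood in 4.14% and 5.05% of all site windows and in 1.25% and 0.831% of the promoter windows of that length. Within 100 bp, TTCCCGC was found at efl-1 and lin-53, where 6.20% of site windows and 2.35% of promoter windows of that length held it. TTGGCGC was found at lin-54 within 100 bp, where 6.37% and 1.57% held it. TTTGAA was found within 50 bp of the summits of lin-9, lin-53 and lin-54. It stood in 16.2% of all site windows and in 29.8% of the promoter windows, so it was less frequent at the sites of the series than in promoters at large. The windows centred 500 bp to either side held it in 24.8%. Their median G and C content was 36.6%, against 48.5% at sites. Whether this difference bears on the shares of the CHR and E2F letters was not tested. Within 100 bp TTTGAA was also found at efl-1, where 33.9% of site windows and 50.3% of promoter windows of that length held it. TTCGAA was found at none of the 5, and in 6.29% of site windows. Over the whole promoter window, TTTGAA was found in every member, with 4 matches at dpl-1, 2 at lin-37 and 3 at lin-52, the genes without a site. E2F letters were also in the windows of dpl-1 (TTCCCGC) and lin-52 (TTGGCGC), as in those of efl-1, lin-53 and lin-54. These letters thus did not separate the members with a site from those without. A match to these letters shows no binding, and the lack of one says nothing about the factor.

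The short sequences most in excess at the sites of the whole series were present at some members. Of the 10 6-mers with the largest excess over the windows to either side, GAGCGC, which is part of the shared run, was found at 4 of the 5 member sites, lin-35, efl-1, lin-9 and lin-54, and in 14.0% of all sites and 1.92% of promoter windows. The pair GAGAGA and AGAGAG, at 20.3% and 18.1% of all sites, was found at none of the 5. ACGCAG was found at efl-1 and lin-54, and in 15.7% of all sites and 2.92% of promoter windows. ACGCGC was found at lin-53 (14.5% and 2.41%), and CGCGCA at lin-35 and lin-53 (13.2% and 2.40%). GACGCA was found at efl-1 and lin-54 (14.8% and 3.15%), and AGACGC at efl-1 (14.3% and 2.66%). The rest of the 10 were CACACA, at lin-53, and CGTCTC, at efl-1. They stood in 5.29% and 3.57% of promoter windows and in larger shares of all sites. The G and C content of the 5 windows ran from 41.6% at lin-54 to 59.4% at lin-9, where the median site had 48.5% and the windows to either side 36.6%.

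The lists of genes that act with or against the complex held 39 other genes, all found. Of these, 3 (7.69%) had a site in the promoter window, where 4.42% of all protein-coding genes did. Of the 11 other synMuv B genes only mep-1, a zinc-finger gene, had one. Its window held 2 sites, with joint scores of 135.4 (73.9 and 69.0 in replicates 1 and 2) and 89.1 (40.3 and 45.2), and each also lay in the windows of 3 noncoding RNA genes. Of the 9 genes for partners of LIN-53 in other complexes only mes-2, a Polycomb-type histone methyltransferase gene, had one, 130 bp upstream, with a score of 73.3 (37.0 and 35.0). Of the 10 regulators of G1 and S phase only lin-23, an F-box gene that limits cell division, had one, 944 bp upstream, with a score of 102.6 (34.5 and 63.4), and it also lay in the window of the noncoding gene linc-27. The mes-2 call was absent from the own list of each replicate, and the lin-23 call from that of replicate 1, while mep-1 was in both. The E2F relatives efl-2 and efl-3, the 4 synMuv A genes and the 5 suppressors of synMuv phenotypes had 0 promoter sites. Of these suppressors, zfp-1 had 3 sites inside the gene, 3427, 4353 and 10616 bp downstream of its 5′ end, with scores of 73.2, 81.7 and 85.0. With the gene included, 4 of the 39 genes had a site, where 5.62% of all protein-coding genes did.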

How the data were processed

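Each peak list is on ce11 and was made from filtered alignments with a control alignment, per the deposited manifests; the control was not used here. Neither the aligner nor the peak caller is named in the sources at hand. The deposited signal is a score of the authors' peak caller, whose scaling is not stated either. The deposited ranked lists hold −log10 of the global IDR, printed here as the IDR. The authors' conservative set, drawn from both libraries, gave the sites. Library scores came from the ranked list that compares the libraries; its library columns were told apart by 18602 and 18791 of 36486 intervals that recur, with their scores, in the ranked lists of replicates 1 and 2, with 0 crossed matches.

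Gene models came from Ensembl release 115 and sequence from RefSeq, both on WBcel235, which is ce11. Coordinates are 1-based. Peaks were placed by their summit with Python 3.11.15 and pandas 2.3.3, and the placement was tested on simulated data. No test was run: there is 1 group, and the members, lists and motifs were chosen with earlier results of these data known. The genes named are the members, those sharing their peaks or lying next to them, and listed genes with a site. The shared run, the 6-mers, the upstream arrangements and the zfp-1 sites were chosen after the values were seen. The labels call the libraries biological replicates; whether they came from separate cultures is not stated, so the SD may be technical in part.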

Additional observations from a re-analysis of the deposited data

How the results depend on the processing

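The 5 of 8 members with a site in the promoter window ranged from 3 to 5 when one replicate was left out. Replicate 2's list alone kept lin-9, lin-53 and lin-54 (3 of 8, against 2.39% of protein-coding genes), and replicate 1's list alone kept all 5 (3.50%). The count with the gene included ranged from 3 to 5 in the same way, against 3.01% without replicate 1 and 4.28% without replicate 2. The other series set, a window of 500 bp upstream to 100 bp downstream, one of 2000 bp upstream, any overlap of 1 bp in place of the summit and the 5′ ends of all transcripts gave the same 5 genes, against 4.14%, 3.45%, 5.66%, 4.70% and 4.75% of protein-coding genes in that order. The stronger 50% of sites dropped efl-1 (4 of 8, against 2.71%), and the nearest 5′ end dropped lin-54 (4 of 8, against 3.15%). The other genes of the pathway with a site were 3 of 39, against 4.42% of protein-coding genes. In the other series set they were 5 (against 4.14%), which adds chaf-1 and mrg-1, and the cause was not tested. Replicate 2's list alone gave 2 (against 2.39%), without mes-2. Replicate 1's list alone gave 3 (against 3.50%), with cye-1 and mrg-1 in place of lin-23 and mes-2. The window of 500 bp upstream gave 2 (against 3.45%), without lin-23. The shared run was in 0 of the 5 member windows of 61 bp, since it lies beside the summit. At that width 1.16% of site windows and 0.0901% of promoter windows held it. The run was in 3 of the member windows reaching 100 bp to either side, where 2.32% and 0.360% did. Both widths were tried after the data were seen. CHR or E2F letters were at 3 members within 30 and 50 bp of the summit and at 4 within 100 bp. Each of these members held TTTGAA at that reach. TTTGAA stood in 7.94%, 16.2% and 33.9% of site windows at the 3 reaches, and in 19.1%, 29.8% and 50.3% of promoter windows. The E2F forms were at 0 members within 30 and 50 bp. Within 100 bp TTCCCGC was at 2 members (6.20% of site windows) and TTGGCGC at 1 (6.37%), so the E2F result depends on the width. No paired analysis was possible because there is 1 group. With no untagged library used here, precipitation was not told apart from binding. Annotated 5′ ends need not be transcription starts, since many worm messages are trimmed by trans-splicing. Depth is unknown, so a missing site is not an absence of LIR-1.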
